A study of Mus musculus with 24 samples.

Results

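The 10 genes described here code for glutamate receptors of the mouse hippocampus: the 4 AMPA receptor subunits Gria1, Gria2, Gria3 and Gria4, the kainate receptor subunits Grik1, Grik2, Grik3 and Grik5, and the auxiliary subunits Neto1 and Neto2. They were taken by symbol as 10 of the 21793 genes in a table of normalised read counts. All 10 passed the filter on low values. Poly(A) mRNA was read from the hippocampus of 24 females, with 12 mice of the line 3xTg-AD (3xTg) and 12 B6129SF2/J mice (WT). The 3xTg line is a model of Alzheimer's disease with transgenes for human APP and human MAPT, both under a Thy1 cassette that is active mainly in neurons. Diets began at 3 months of age and lasted 6 months. The ketogenic diet held no carbohydrate, with 90% of its content as long-chain triglycerides and 10% as protein, and was fed to 5 3xTg and 4 WT mice. The medium-chain triglyceride (MCT) diet kept 70% carbohydrate and replaced a part of the long-chain fat with 10% medium-chain triglycerides, and was fed to 4 3xTg and 4 WT mice. The control diet, with 70% carbohydrate and 20% long-chain triglycerides, was fed to 3 3xTg and 4 WT mice. The libraries are numbered within each group and are taken as 1 mouse each, which the labels do not state outright.

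AMPA and kainate receptors are glutamate-gated ion channels built from 4 subunits each. AMPA receptors carry most fast excitatory transmission in the hippocampus, and GluA2, the product of Gria2, makes them nearly impermeable to calcium. Kainate receptors act before and after the synapse, with a known role at mossy fibre synapses between dentate granule cells and CA3 neurons, and Neto1 and Neto2 are transmembrane proteins that slow their gating. Of the subunits, GluA4 (Gria4) and GluK1 (Grik1) are known to be abundant in inhibitory interneurons.

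One codon of the channel pore, the Q/R site, sets much of how these receptors conduct. It reads as glutamine in the genome of all 8 subunit genes, and RNA editing by ADAR2 turns it to arginine in nearly all Gria2 mRNA and in part of the Grik1 and Grik2 mRNA. The 45 coding bases around it are shown to compare the 8 subunits and to mark the site that read counts per gene cannot resolve. They come from GENCODE M21 transcripts on GRCm38, in the direction of the gene, with the Q/R codon in capitals.
Gria1: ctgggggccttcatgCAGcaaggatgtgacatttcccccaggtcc
Gria2: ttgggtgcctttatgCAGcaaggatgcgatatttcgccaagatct
Gria3: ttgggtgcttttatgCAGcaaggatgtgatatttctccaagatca
Gria4: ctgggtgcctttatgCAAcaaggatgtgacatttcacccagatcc
Grik1: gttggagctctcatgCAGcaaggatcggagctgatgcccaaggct
Grik2: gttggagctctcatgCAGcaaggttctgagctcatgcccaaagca
Grik3: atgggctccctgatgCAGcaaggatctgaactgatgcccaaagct
Grik5: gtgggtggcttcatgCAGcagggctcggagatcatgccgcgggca
The codon is CAG in 7 genes and CAA in Gria4. The AMPA subunits shared 36 to 41 of the 45 bases with each other, and the kainate subunits shared 28 to 40. An AMPA subunit shared 26 to 30 with a kainate subunit, which overlaps the kainate range. Grik3 and Grik5 shared 28, and Grik3 and Gria2 shared 30. On GRCm38 the codon lies at chr3:80706911-80706913 on the minus strand in Gria2 and at chr16:87940542-87940544 on the minus strand in Grik1. It is coding sequence in both genes, and except in Grik5 the 45 bases run across an exon junction. The share of edited mRNA was not measured by this table.

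Depth and label checks bear on all values below. The libraries held 10078435 to 25810846 reads, apart from 3xTg ketogenic replicate 2 with 2653427, and that library also stood apart from the rest on the first principal components. Thy1, whose sequence is part of the transgene cassette, lay between 20385 and 29277 normalised counts in 10 3xTg libraries and between 6952 and 8137 in 11 WT libraries. The remaining 3 libraries went against their labels. The library labelled 3xTg control replicate 3 had 9189, the library labelled 3xTg ketogenic replicate 1 had 8112, and the library labelled WT MCT replicate 2 had 23048. Their App values, 23524, 23019 and 30297 in the same order, also lay with the other genotype. App ran from 29473 to 37175 in the 10 3xTg libraries and from 21293 to 25302 in the 11 WT libraries. On the first principal component the 3 libraries lay at 13.07, 11.67 and -16.46, likewise with the other genotype. All 24 libraries were kept as labelled, and results are given again for the 21 others (10 3xTg and 11 WT). Dentate granule, CA1, CA2, CA3, interneuron and glial markers were all present, with none of them at 0 in every library. In whole tissue, fewer cells of a type and less RNA per cell cannot be told apart.

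Gria1 and Gria2 were the most abundant of the set and Grik1 the least, while Gria3 and Gria4 stood lower in the order. Per kb of exon, the mean over 24 libraries was 3152 normalised counts for Gria1 and 1462 for Gria2, each above the next gene in all 24 libraries. Neto1 followed with 443 and Gria3 with 426, a pair whose order changed from library to library (Neto1 higher in 13 of 24). Grik5, which encodes the GluK5 subunit that works only together with other kainate subunits, had 374 per kb, and Neto2 had 268. Gria4 had 203, Grik2 had 120, Grik3 had 82.1 and Grik1 had 38.1. Grik1 was the lowest of the 10 in every library, with 58 reads in the library of fewest reads and 173 to 546 in the rest.

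The order of the top genes depended on the length used. Counted per kb of coding exon, Gria2 stood above Gria1 in all 24 libraries, with 8106 against 6716, because the exons of Gria2 add up to 15.5 kb and its coding part to 2.80 kb. Neto1 stayed next, with 2315, while Neto2 with 958 passed Grik5 with 627 and Grik2 with 540 passed Gria4 with 448. Grik3 with 267 and Grik1 with 85.4 stayed last. Within the kainate subunits, Grik4 included, Grik5 made up 50.9% of the level per kb of exon, Grik2 16.4%, Grik4 16.3%, Grik3 11.2% and Grik1 5.20%. With the coding length the kainate shares were 35.4% for Grik5, 30.6% for Grik2, 15.1% for Grik3, 14.1% for Grik4 and 4.83% for Grik1, so Grik3 passed Grik4. Of the AMPA level, Gria1 made up 60.1% and Gria2 27.9% per kb of exon, against 40.03% and 48.3% with the coding length.

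**Figure D1:**
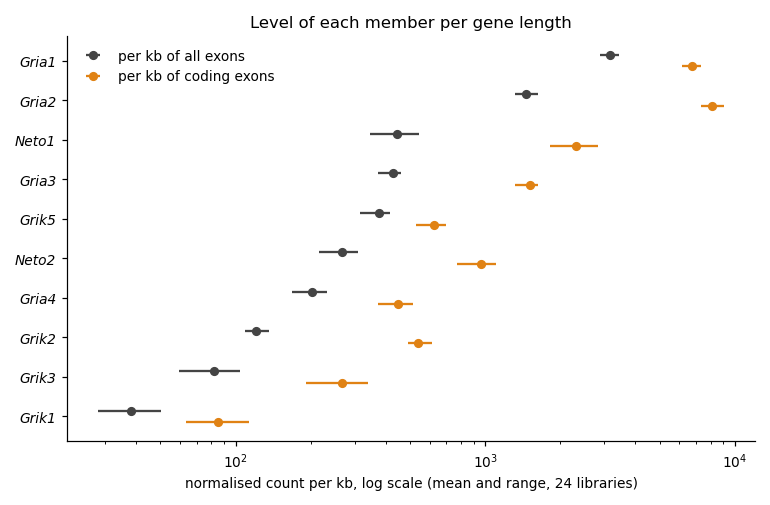
Level of each of the 10 genes as normalised counts per kb on a log axis, with all exons (grey) or coding exons (orange) as the length. Points are means and lines the range over 24 libraries. Gria1 and Gria2 lead on both lengths and trade places between them, and Grik1 is last on both.

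The genes also differed in how tightly replicates agreed. The SD within groups on the log2 scale was smallest in Gria2 at 0.07 and Gria1 at 0.07, and largest in Grik1 at 0.17 and Grik3 at 0.23. Among the 8885 genes whose mean was 200 normalised counts or more, the median SD was 0.105. Grik3, a kainate subunit of low agonist sensitivity, ran between 531 and 938 normalised counts in 3xTg ketogenic mice alone, and between 546 and 926 in WT MCT mice alone.

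**Figure D2:**
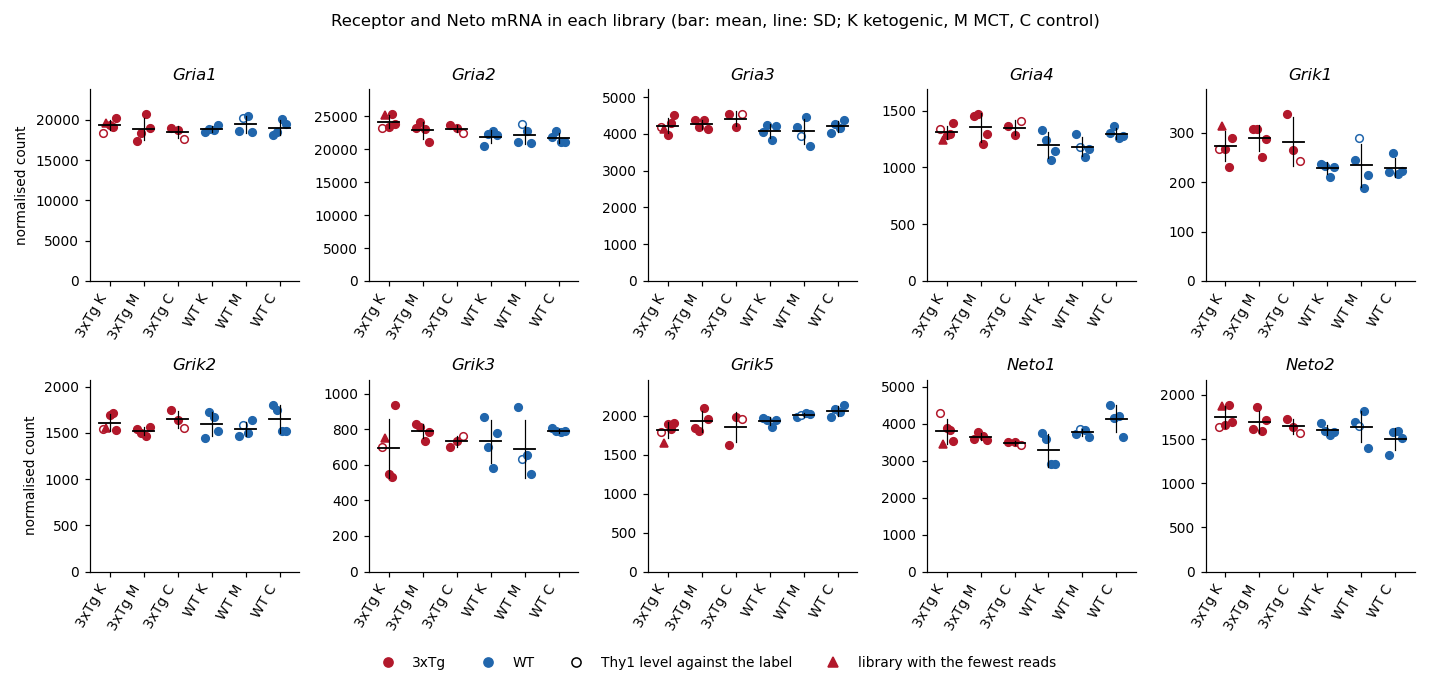
Normalised counts of the 10 genes in each of the 24 libraries, by genotype and diet, with 3xTg groups on the left in red and WT groups on the right in blue. Bars are group means and lines the SD, open circles are the 3 libraries whose Thy1 level went against the label, and the triangle is the library with the fewest reads. Grik1 sits higher in the red groups, Grik5 lower, and Neto1 is high in WT control and low in WT ketogenic mice.

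The first question was how 3xTg differed from WT with each diet weighted equally. Over all 24 libraries Grik1 and Gria4 rose in 3xTg hippocampus, both by small amounts, and no other member passed the test. The call of Gria4 was lost over the 21 libraries, where Gria2 was called higher and Grik5 lower. In the limma fit over all genes, 2 of the 10 members were called higher and 0 lower at an adjusted p under 0.05. The background was high: 8.1% of 14162 genes were called in either direction, 3.71% higher and 4.38% lower. The median log2 difference of the 10 members was 0.034, with 6 above 0, and that of all genes tested was -0.0008.

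Grik1, the GluK1 kainate subunit, was the clearest of them. It ran from 232 to 338 normalised counts in 3xTg libraries, with a median of 278, and from 189 to 290 in WT libraries, with a median of 227. All 12 3xTg libraries lay above the WT median and 4 lay above the highest WT library, so the genotypes overlapped. The highest WT value, 290, came from the library labelled WT MCT replicate 2. Grik1 averaged 281 ± 32.1 in 3xTg and 231 ± 25.8 in WT (SD, n = 12 each). The log2 difference was 0.28 ± 0.07 (SE, limma adjusted p = 0.0118), a 1.22-fold higher level with a 95% interval of 1.10 to 1.34. Without the 3 libraries that went against their labels it was 0.36 ± 0.07 (limma adjusted p = 0.00081).

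Its values by group were alike across diets. In 3xTg ketogenic mice Grik1 had 267, 313, 267, 232 and 290 normalised counts, against 238, 234, 211 and 232 in WT ketogenic mice. Among 3xTg MCT mice the values were 309, 308, 252 and 288, against 245, 290, 189 and 214 in WT MCT mice. The 3xTg control mice had 338, 265 and 243, against 221, 259, 218 and 222 in WT control mice. In each diet the 3xTg mean was higher and the groups overlapped. The share of Grik1 in the level of all kainate subunits per kb of exon was 5.79 ± 0.79% in 3xTg and 4.62 ± 0.48% in WT (SD, n = 12 each).

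Gria4, the GluA4 AMPA subunit, ran from 1202 to 1469 normalised counts in 3xTg libraries, with a median of 1314, and from 1065 to 1362 in WT libraries, with a median of 1248. Of the 12 3xTg libraries 10 lay above the WT median and 5 above the highest WT library. Its log2 difference was 0.13 ± 0.04 (SE, limma adjusted p = 0.0446), or 1.09-fold with a 95% interval of 1.03 to 1.16. This call was marginal: over the 21 libraries the difference was 0.12 ± 0.05 (limma adjusted p = 0.0952), and with single libraries left out it was called in 8 of 24 fits, with differences of 0.11 to 0.15. Those 8 were the fits without 3xTg control replicate 2, 3xTg ketogenic replicate 2, 3xTg MCT replicates 3 or 4, WT control replicate 2, WT ketogenic replicate 1 and WT MCT replicates 1 or 2.

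Gria2 and Grik5 lay just outside the threshold and on opposite sides of 0. Gria2 ran from 21107 to 25368 normalised counts in 3xTg libraries, with a median of 23331, and from 20482 to 23784 in WT libraries, with a median of 21965. It was above the WT median in 11 of 12 3xTg libraries, and its log2 difference was 0.09 ± 0.03 (SE, limma adjusted p = 0.0527). Grik5 ran from 1632 to 2099 in 3xTg libraries, with a median of 1871, and from 1854 to 2143 in WT libraries, with a median of 2000. It was below the WT median in 11 of 12 3xTg libraries, with a log2 difference of -0.11 ± 0.03 (SE, limma adjusted p = 0.0526).

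Over the 21 libraries both passed: Gria2 was higher by 0.12 ± 0.03 (SE, limma adjusted p = 0.0184), and Grik5 was lower, with a log2 difference of -0.12 ± 0.04 (SE, limma adjusted p = 0.0418). There 3 members were called, 2 higher (Grik1 and Gria2) and 1 lower (Grik5), where 13.2% of 14126 genes were called in either direction, 6.31% higher and 6.84% lower. Grik5 made up 49.7 ± 2.00% of the kainate level per kb of exon in 3xTg and 52.1 ± 1.03% in WT, and Gria2 made up 28.6 ± 1.12% of the AMPA level in 3xTg and 27.2 ± 0.95% in WT (SD, n = 12 each). With the coding length Grik5 made up 34.4 ± 1.84% in 3xTg and 36.4 ± 1.01% in WT, and Gria2 made up 49.1 ± 1.34% in 3xTg and 47.5 ± 1.21% in WT. Shares within a family add up to 100%, so a higher share of one gene lowers the rest.

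The other 6 members were not called. Neto2 had a log2 difference of 0.10 ± 0.04 (SE, limma adjusted p = 0.127), with 11 of 12 3xTg libraries above the WT median. Gria3, which pairs with GluA2 in many receptors, had 0.06 ± 0.03 (SE, limma adjusted p = 0.213). Gria1, the main partner of GluA2 in CA1 synapses, had -0.02, with a 95% interval of -0.08 to 0.04, so a difference beyond about 0.08 in either direction lay outside the interval. Neto1 had -0.03 (interval -0.12 to 0.07), Grik2 -0.00 (interval -0.08 to 0.07) and Grik3 0.00 (interval -0.17 to 0.18).

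**Figure D3:**
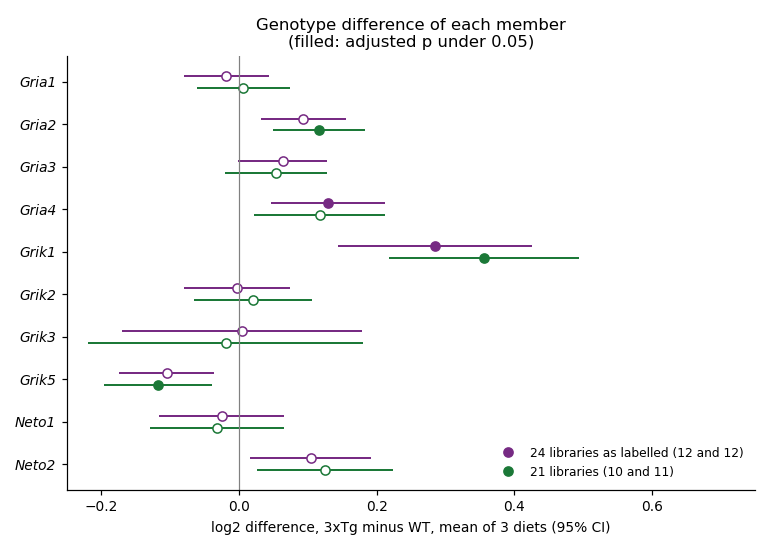
Log2 difference of each member, 3xTg minus WT with the 3 diets weighted equally, with its 95% interval, for all 24 libraries (purple, 12 3xTg and 12 WT) and for 21 libraries (green, 10 3xTg and 11 WT). Filled points have an adjusted p under 0.05. Grik1 is filled in both fits, Gria4 in the first, and Gria2 and Grik5 in the second.

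Markers of several cell types were called in the same comparison, where 3.71% of all genes were called higher and 4.38% lower. Of 10 interneuron markers 3 were called higher in 3xTg and 0 lower: Vip, a neuropeptide of an interneuron class, by 0.45 ± 0.07, Dlx1, a transcription factor of that lineage, by 0.25 ± 0.05, and Gad2, which makes GABA, by 0.12 ± 0.03 on the log2 scale (SE). Vip ran from 380 to 556 normalised counts in 3xTg libraries and from 280 to 392 in WT libraries. Over the 21 libraries Vip ran from 410 to 556 in 3xTg and from 280 to 381 in WT, without overlap. The ranges of Dlx1 and Gad2 still overlapped there. The summed level of the list was 12104 to 14510 in 3xTg libraries and 12009 to 13965 in WT libraries, so the genotypes overlapped. The other 7 were not called: the neuropeptide genes Npy and Sst had -0.18 and -0.01, Lamp5 had -0.07, Gad1, the other GABA-synthesising enzyme, had 0.00, Pvalb had 0.03, and Slc32a1 and Lhx6 had 0.10 and 0.11. Of 7 dentate granule markers 4 were called lower and 0 higher: C1ql2 at -1.10, Lct at -0.70, Prox1 at -0.30 and Stxbp6 at -0.26. Npnt, Dsp and Calb1 were not called, with -0.17, -0.01 and 0.06. The summed level of this list was 8110 to 9915 in 3xTg and 8630 to 11956 in WT. Of the 5 astrocyte markers 2 were called higher, and their sum was 24526 to 26847 in 3xTg and 21949 to 27737 in WT. Likewise 2 of 5 oligodendrocyte markers were called higher, with sums of 59497 to 79738 in 3xTg and 47965 to 79073 in WT. Of the 3 endothelial markers 2 were called lower, Cldn5 at -0.43 and Flt1 at -0.22, with a sum of 1186 to 1690 in 3xTg and 1428 to 1700 in WT. Single markers were called in 4 further lists: Tmem119 higher among 4 microglial markers at 0.30, Rbfox3 lower among 5 neuronal markers at -0.15, Wfs1 lower among 5 CA1 markers at -0.35, and Rgs9 lower among 5 striatal markers at -0.51. Of the 5 striatal markers 4 had a value below 0 and 1 above. The striatal sum was 602 to 767 in 3xTg and 642 to 831 in WT. Over the 21 libraries it was 602 to 700 in 3xTg and 715 to 831 in WT, without overlap. None of the CA2, CA3, oligodendrocyte precursor, choroid plexus or neocortex markers was called. Of the 4 choroid plexus markers 3 passed the filter and were tested, and all 3 had a value below 0. All 4 CA3 markers also had a value below 0, with a median of -0.20. The part of these cell types in the differences of Grik1 and Gria4 was not tested.

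Profiles across libraries were compared as a description. With each gene centred and scaled to its own SD over 24 libraries, the genes nearest to Grik1 were Vip, the phosphatase gene Dusp26 and the membrane protein gene Cd200, at root-mean-square distances of 0.57, 0.57 and 0.58, where the median gene was at 1.41. Nearest to Gria4 were Dpp10, an accessory protein of potassium channels, at 0.52, Sec14l3 at 0.63 and Dsc3 at 0.64. For Neto1 the nearest were Lrrc74b at 0.74, the ligand gene Wnt4 at 0.75 and Pld5 at 0.77. Lrrc74b, Sec14l3 and Pld5 had low means of 17.4, 24.0 and 37.4 normalised counts, where the filter stood at 10. The genotype difference and the library labels are shared by all such profiles.

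Taken diet by diet, no member was called. On the ketogenic diet 0 of 10 members were called by limma, where 0.155% of all genes were. On the MCT diet 0 were called, where 0% of all genes were. On the control diet 0 were called, where 0.0565% of all genes were. At an unadjusted limma p under 0.05 stood 4 members and 2073 of 14162 genes on the ketogenic diet. The MCT diet had 2 members and 1008 genes there, and the control diet 3 members and 2050 genes. edgeR and DESeq2 on the recovered reads also called 0 members in each diet. Over the 21 libraries the shares of genes called were 3.62% on the ketogenic, 1.77% on the MCT and 1.74% on the control diet, and again 0 members.

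Grik1 had nearly the same difference on each diet: 0.25 ± 0.11 on the ketogenic diet (SE, limma adjusted p = 0.284), 0.31 ± 0.12 on the MCT diet (limma adjusted p = 0.533) and 0.28 ± 0.13 on the control diet (limma adjusted p = 0.311). The interaction of genotype with the ketogenic diet was -0.03, with a 95% interval of -0.38 to 0.32, and that with the MCT diet was 0.03, with an interval of -0.33 to 0.39. Gria2 was the 1 member of 10 whose ketogenic groups did not overlap with 3xTg higher, where 2.01% of all genes tested did the same. It had 23260, 25173, 23378, 25368 and 23832 normalised counts in 3xTg ketogenic mice, against 20482, 22342, 22825 and 22117 in WT ketogenic mice. Every 3xTg value lay above every WT value, with a log2 difference of 0.14 ± 0.05 (SE, limma adjusted p = 0.168). The 23260 came from the library labelled 3xTg ketogenic replicate 1, whose Thy1 level went against the label. The 25173 came from the library of fewest reads.

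Neto1 had the widest span of genotype differences between diets. In 3xTg ketogenic mice it had 4303, 3441, 3876, 3834 and 3535 normalised counts, against 3762, 3581, 2901 and 2902 in WT ketogenic mice. The 4303 came from the library labelled 3xTg ketogenic replicate 1, whose Thy1 level went against the label. The 3xTg MCT mice had 3603, 3777, 3663 and 3560, against 3739, 3874, 3828 and 3646 in WT MCT mice. Values in 3xTg control mice were 3517, 3518 and 3420, against 4520, 4172, 4216 and 3641 in WT control mice. The 3420 came from the library labelled 3xTg control replicate 3, whose Thy1 level also went against the label. Control-diet groups did not overlap, with 3xTg lower, as in 6% of all genes tested, while the ketogenic groups overlapped with 3xTg higher on average.

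The difference between 3xTg and WT in Neto1 was 0.21 ± 0.07 on the ketogenic diet (SE, limma adjusted p = 0.161), -0.05 ± 0.08 on the MCT diet (limma adjusted p = 0.968) and -0.24 ± 0.08 on the control diet (limma adjusted p = 0.191). None of these passed the threshold. Grik3 and Grik5 also had control-diet groups that did not overlap, with 3xTg lower, which makes 3 of 10 members with Neto1, in groups of 3 and 4 libraries. The 3xTg group holds 3xTg control replicate 3, whose Thy1 level went against the label. Grik3 had 702, 732 and 761 in 3xTg control mice, against 807, 787, 782 and 792 in WT control mice, for a log2 difference of -0.11 ± 0.16 (SE, limma adjusted p = 0.774). Grik5 had 1632, 1985 and 1958 in 3xTg control mice, against 1989, 2084, 2049 and 2143 in WT control mice, for -0.16 ± 0.06 (SE, limma adjusted p = 0.26).

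The next question was what each diet did within a genotype. By limma 0 members were called for either diet in either genotype, where 0% of genes were called for the ketogenic diet in 3xTg or WT, 0% for MCT in 3xTg and 0.00706% for MCT in WT. Neto1 had the largest of these differences. Ketogenic minus control in WT it was -0.34 ± 0.08 (SE, limma adjusted p = 0.983), and in 3xTg it was 0.12 ± 0.08 (SE, limma adjusted p = 0.763). The interaction, which is the difference between these 2, was 0.46 ± 0.11 (SE, limma adjusted p = 0.724), and 0% of all genes were called in it. The same WT control and WT ketogenic mice enter the first and the last of these values, so they are not independent.

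Libraries that stood apart touched Neto1. Ttr, a marker of choroid plexus, was at 11390 normalised counts in WT control replicate 1 and at 3921 in WT ketogenic replicate 1, and at 380 or less in the other libraries. WT control replicate 1 also had the highest Neto1 value, 4520. Leaving it out gave -0.29 for ketogenic minus control in WT (limma adjusted p = 0.9999) and 0.41 for the interaction (limma adjusted p = 0.883). Leaving out WT ketogenic replicate 1 gave -0.41 (limma adjusted p = 0.109) and 0.53 (limma adjusted p = 0.497). The library labelled 3xTg ketogenic replicate 1 had the highest Neto1 value of the 3xTg libraries, 4303. Without it the genotype difference on the ketogenic diet was 0.17 (limma adjusted p = 0.222). The interaction was then 0.41 (limma adjusted p = 0.451). Over the 21 libraries the interaction was 0.40 ± 0.12 (SE, limma adjusted p = 0.748).

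**Figure D4:**
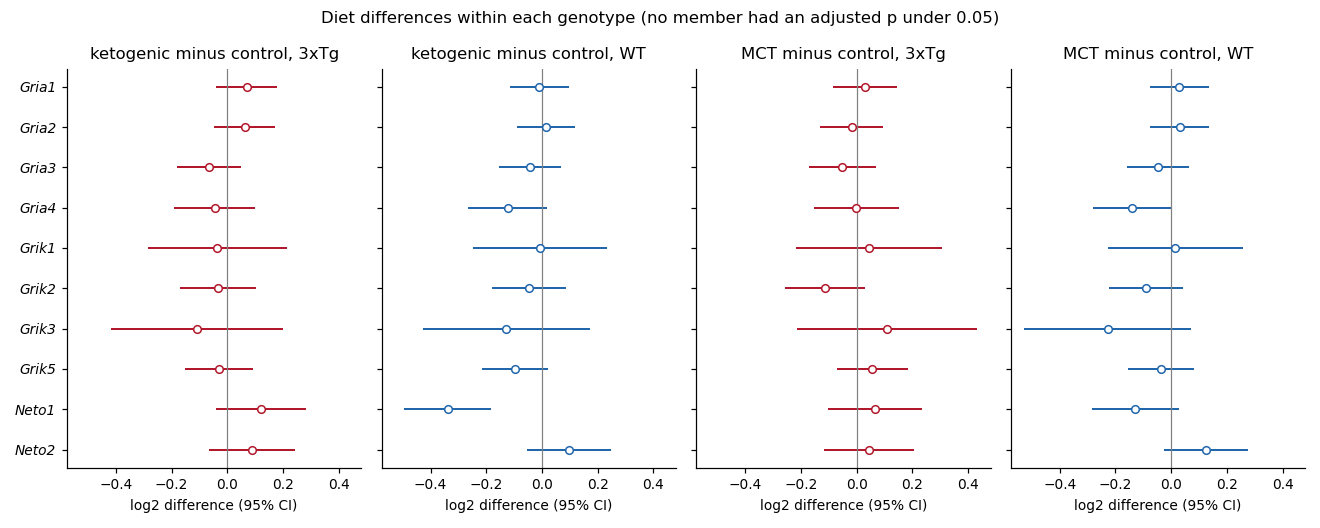
Log2 differences of the 10 members for the ketogenic diet minus control and the MCT diet minus control, in 3xTg (red) and in WT (blue), with 95% intervals. All points are open because no adjusted p was under 0.05. Neto1 under the ketogenic diet in WT lies farthest from 0, at -0.34.

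For the other members the 95% intervals of the diet differences show which sizes stay plausible, not which sizes the test could have called. Grik1 had -0.04 for ketogenic minus control in 3xTg, with a 95% interval of -0.29 to 0.21, and -0.01 in WT, with an interval of -0.25 to 0.23. Gria1 had 0.07 in 3xTg (interval -0.04 to 0.18) and -0.01 in WT (interval -0.12 to 0.10) for the same diet. Under MCT the members lay between -0.11 (Grik2) and 0.11 (Grik3) in 3xTg and between -0.23 (Grik3) and 0.13 (Neto2) in WT. Grik5 was below all WT control values in each WT ketogenic mouse, with 1974, 1952, 1854 and 1952 in WT ketogenic mice, as were 1.44% of all genes, and its difference was -0.10 ± 0.06 (SE, limma adjusted p = 0.983). Neto1 in 3xTg MCT mice lay above all 3xTg control mice, as did 2.34% of all genes, with a difference of 0.07 ± 0.08 (SE, limma adjusted p = 0.999). Averaged over genotypes, 0 members were called for either diet, with 0% of genes called, and ketogenic minus MCT called 0 members in 3xTg (0% of genes) and 0 in WT (0.00706% of genes). At an unadjusted limma p under 0.05 stood 1 member, Neto1, in ketogenic minus control in WT, where 654 of 14162 genes did. Neto1 alone also stood there in ketogenic minus MCT in WT (505 genes) and in the ketogenic interaction (946 genes). In MCT minus control averaged over genotypes it was 1 member, Grik2, and 601 genes. The other diet comparisons had 0 members there. edgeR and DESeq2 called 0 members in each of the diet comparisons.

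The partners of these receptors were compared in the same fit. The 35 related genes cover the subunits Grik4 and Grid1, AMPA auxiliary proteins, assembly and trafficking proteins, kainate receptor partners and RNA-editing enzymes. Of them 0 were called higher and 2 lower in 3xTg with diets weighted equally, where 3.71% of all genes were called higher and 4.38% lower. C1ql2, a secreted protein of mossy fibre terminals that binds kainate receptors, fell. It ran from 208 to 662 normalised counts in 3xTg libraries, with a median of 292, and from 358 to 857 in WT libraries, with a median of 701. Its log2 difference was -1.10 ± 0.15 (SE, limma adjusted p = 0.000305), and over the 21 libraries it was -1.38 ± 0.08 (limma adjusted p = 4.11e-11), with 208 to 346 in 3xTg and 611 to 857 in WT. C1ql2 is also a dentate granule marker, and Prox1, the transcription factor of those cells, ran from 1673 to 2071 in 3xTg and from 1856 to 2738 in WT. Other markers of those cells were not called: Npnt had -0.17, Dsp -0.01 and Calb1 0.06. C1ql3, the relative of C1ql2, had a difference of -0.05 ± 0.04 (SE, limma adjusted p = 0.545).

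Epb41l1, the 4.1N protein that anchors GluA1 to the cytoskeleton, fell by 0.15 on the log2 scale. It ran from 5735 to 7049 normalised counts in 3xTg libraries and from 6409 to 7558 in WT libraries, with an SE of 0.03 and a limma adjusted p of 0.00878. Of the 14 AMPA auxiliary genes, such as the TARPs and the cornichons, 0 were called by limma, and DESeq2 called 1 lower, Shisa7 at -0.14. In limma 13 of the 14 had a value below 0, with a median of -0.08, where 50.4% of all genes tested were below 0. Of the 14 assembly and trafficking genes 1 was called lower, and 9 had a value below 0. Grik4, the other high-affinity kainate subunit, had a difference of 0.01 ± 0.05 (SE, limma adjusted p = 0.908). Adarb1, which encodes ADAR2, had -0.06 ± 0.04 (SE, limma adjusted p = 0.317).

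Over the 21 libraries 2 further related genes were called. Of all 35 related genes 1 was then called higher and 3 lower, where 6.31% of 14126 genes were higher and 6.84% lower. Frrs1l, an endoplasmic reticulum protein needed for AMPA receptor assembly, was lower, with a log2 difference of -0.27 ± 0.06 (SE, limma adjusted p = 0.00311), and ran from 6115 to 6901 in 3xTg and from 6449 to 9451 in WT. Adarb2, an editing-enzyme relative with no known editing activity, was higher by 0.63 ± 0.10 (SE, limma adjusted p = 9.71e-05), with 849 to 1001 in 3xTg and 433 to 772 in WT, and those ranges did not overlap. In the 24 libraries Frrs1l had -0.19 ± 0.06 (SE, limma adjusted p = 0.0561), and DESeq2 called it lower, as it did Nsf. There Adarb2 had 0.40 ± 0.14 (SE, limma adjusted p = 0.0666), where the library labelled WT MCT replicate 2 gave the highest value of all, 1094.

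**Figure D5:**
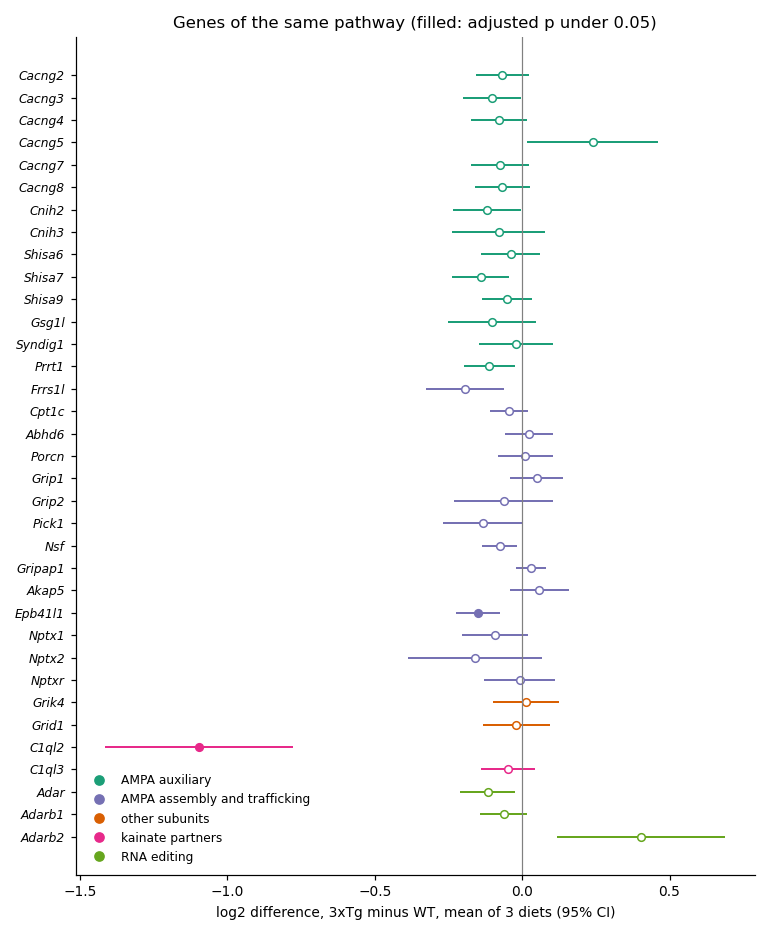
Log2 difference, 3xTg minus WT with diets weighted equally, of the 35 related genes in 24 libraries, with 95% intervals and colours by group. Filled points, C1ql2 at -1.10 and Epb41l1 at -0.15, have an adjusted p under 0.05, and 13 of the 14 AMPA auxiliary genes lie left of 0, where 50.4% of all genes tested do.

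No related gene was called by limma in any other comparison of the fit over the 24 libraries, and the genes with the smallest p are given as values. C1ql2 led the genotype difference on each diet, with -1.09 on the ketogenic diet (limma adjusted p = 0.0568), -1.28 on the MCT diet (limma adjusted p = 0.237) and -0.92 on the control diet (limma adjusted p = 0.158). After it came the TARP gene Cacng3 with -0.29 on the ketogenic diet, Nsf, the fusion ATPase, with -0.10 on the MCT diet, and Epb41l1 with -0.20 on the control diet. DESeq2 called C1ql2 lower on the ketogenic diet (-1.01, adjusted p = 0.0439) and on the MCT diet (-1.33, adjusted p = 0.0197). limma on only the 2 ketogenic groups also called it (adjusted p = 0.0344), and edgeR called no related gene in a single diet. Over the 21 libraries C1ql2 was called on all 3 diets, and Cacng3, Frrs1l and Adarb2 on the ketogenic diet. Of all genes, 3.62% were called there on the ketogenic, 1.77% on the MCT and 1.74% on the control diet.

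Within genotypes, ketogenic minus control was led in 3xTg by Cacng3 with -0.29 and the auxiliary gene Shisa7 with 0.22, and in WT by Syndig1 with 0.24 and Frrs1l with 0.22. MCT minus control was led in 3xTg by Prrt1 with 0.20 and Shisa7 with 0.20, and in WT by Shisa9 with -0.18 and Cacng3 with -0.19. Ketogenic minus MCT was led in 3xTg by Porcn with -0.15 and C1ql2 with 0.43, and in WT by Grik4 with -0.30 and Nptxr with -0.23. Averaged over genotypes, Cacng3 with -0.15 and Shisa7 with 0.12 led for the ketogenic diet, and Cacng3 with -0.19 and Prrt1 with 0.15 for MCT. Cacng3 with -0.29 and Syndig1 with -0.37 led the interaction with the ketogenic diet, and Shisa9 with 0.20 and Syndig1 with -0.30 that with MCT. Their limma adjusted p lay between 0.724 and 0.9998.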

How the data were processed

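Hippocampal poly(A) libraries carried molecular identifiers (UMIs) in their adapters, per the labels' protocols. The submitters' processing notes name Trimmomatic, STAR and the GRCm38 build. Not given in the sources used here: gene counter, use of strand and of UMIs, scaling tool. The signal values deposited by the authors are normalised read counts: within a tolerance of 0.01, 100% of them were whole multiples of 1 step per library, so the reads were recovered. The table has 21793 genes, of which 3695 were at 0 throughout and 26 had names altered to dates; by symbol 21550 matched 1 gene of GENCODE M21, and lengths come from it. No library was a copy of another (lowest chi-square per degree of freedom 1.56).

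The 14162 genes that reached 10 in 3 or more libraries entered the fit. Each value plus 1 was taken to log2, and limma 3.58.1 (R 4.3.3) estimated 6 group means over all 24 libraries with a mean-dependent prior; tests were two-sided, adjusted over all kept genes by Benjamini-Hochberg, and called under 0.05. edgeR 4.0.16 and DESeq2 1.42.0 on recovered reads, other filters, pseudocounts and scalings, a replicate block and fits without single libraries were alternatives. The fit was tested on simulated data, whose smallest change was larger than any member's genotype difference averaged over diets in the 24 libraries. It does not cover differences that small. P-values measure the spread between the numbered samples of a group.

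The members and lists were chosen with earlier results of these data known. All members are named; related genes are named when called, or by the 2 smallest p in a comparison, and near profiles are the 3 nearest genes. Some further items of the line and of the related lists are not reported here.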

Additional observations from a re-analysis of the deposited data

Results flagged for a closer look

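Grik1 in WT control replicate 2 stood apart from its group, at 259 normalised counts against 218 to 222 in the other 3 WT control mice. It was the only one of 50 gene and group pairs in which the highest or lowest of 4 or 5 libraries lay so far from the rest, where chance gives about 1 in 20. Grik1 stayed called without it, as in all 24 fits that left out a library.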

How the results depend on the processing

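Grik1 was called higher in 3xTg, averaged over diets, in all 34 alternatives, with log2 differences of 0.24 to 0.36 and a limma, edgeR or DESeq2 adjusted p of 0.00081 to 0.0447. Gria4 was called in 15 of them, Gria2 in 11 and Grik5 in 11. Gria2 passed without 3xTg control replicate 3, 3xTg ketogenic replicate 1, 3xTg MCT replicate 4, WT control replicate 2, WT ketogenic replicate 3 or WT MCT replicate 2. Grik5 passed without 3xTg control replicates 2 or 3, 3xTg ketogenic replicates 3 or 5, 3xTg MCT replicate 3 or WT ketogenic replicate 3. Against 2 members called over 24 libraries, the count was 1 with no filter, 4 with a mean of 50 or more, 4 with DESeq2, and 1 to 3 with a library left out (1 member in 11 of 24 fits, 2 in 6, 3 in 7). Small values turned sign: Gria1 had 0.0060 over the 21 libraries and 0.025 after quantile normalisation; Grik2 had 0.020 over the 21 libraries and 0.0035 with the replicate block; Grik3 had -0.020 over the 21 libraries, -0.044 with the block and -0.00036 with DESeq2. With a library left out, Grik2 lay between -0.018 and 0.012 and Grik3 between -0.034 and 0.055. Genes called numbered 1147 over 24 libraries, 1858 over 21, and 576 without 3xTg control replicate 1 to 1511 without WT MCT replicate 2. Genotype differences within a diet called 22 genes on the ketogenic diet over 24 libraries, against 511 over 21, 150 with DESeq2, 5 with edgeR and 9 with the block. On the MCT diet 0 genes were called, against 250 over 21 libraries and 28 with DESeq2. On the control diet 8 were called, against 246 over 21, 220 with DESeq2 and 5 with the block. Diet comparisons called 0 to 3 genes by limma over 24 or 21 libraries, edgeR or DESeq2. The other 13 comparisons called 0 members in each alternative run. The fit on only the groups compared gives no value for the average over diets, which uses all groups.

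The replicate numbers showed no clear pairing of the mice, though this check cannot exclude it. Deviations of same-numbered pairs correlated between -0.256 and 0.248, with 11 of 55 over 0.1. Pairs with another number lay between -0.435 and 0.404, with 29 of 184 over 0.1. Best correlation with the own number was seen in 6 of 24 libraries. With the replicate block 3 members were called, 2 higher and 1 lower, among 1177 genes. Depth limits Grik1 most, with 58 reads in the library of fewest reads, and the groups of 3 to 5 mice limit the diet comparisons.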
